A study of Homo sapiens with 6 samples.

Results

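The response of A549 cells to X-rays was compared at 37 °C and after mild heat. A549 is a long established line from a human lung adenocarcinoma. The comparison set 2 arrays of cells given 3 Gy against 2 arrays of cells given 0 Gy, paired by temperature, and used 4 of the 6 arrays in the series by that rule. The 4 groups, of 1 array each, were untreated cells (control), cells given 3 Gy of X-rays alone (IR), cells heated at 41.5 °C for 1 h (HT 41.5), and cells heated in the same way and irradiated with 3 Gy straight afterwards (IR_HT 41.5). All cells had first grown for 24 h at 37 °C. The heated and the irradiated cells were kept at 37 °C for 3 h after treatment. The time after the combined treatment and the time of the control are not given in the sources used here, so that time in culture and radiation cannot be told apart. Nothing says which arrays came from separate cultures. The remaining pair, HT 44 and IR_HT 44, was heated at 44 °C, did not enter the test, and is given only as 2 arrays outside it.

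Ionising radiation breaks DNA, and the kinases that sense the breaks stabilise p53, a transcription factor that raises genes of cell cycle arrest, apoptosis, DNA repair and metabolism. The same damage stops cells before mitosis, and genes needed for G2 and mitosis are then held down by the DREAM complex, which binds a promoter element named CHR that is read as TTTGAA.

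The 4 arrays held 53617 features with medians of 4.39 to 4.41 on the log2 scale. A single gene symbol was given for 16098 features, which left 14884 genes. The epithelial keratin KRT18 lay between 11.48 and 11.54 in the 4 arrays, against a median gene level of 5.38. Of the surfactant genes of alveolar cells, SFTPA1 did not exceed 3.60, SFTPC lay between 3.99 and 4.61, and SFTPB between 4.90 and 5.44. Of the 9 measured epithelial markers 0 were called, and their summed log2 levels ranged from 53.3 to 54.5. Measured markers of leukocytes (3), endothelium (3) and fibroblasts (2) had 0 calls as well, and summed levels of 16.45 to 17.04, 10.2 to 11.1 and 4.35 to 5.43. The endothelial PECAM1 did not exceed 3.79 and the fibroblast genes DCN and LUM did not exceed 3.15. CD68, a lysosomal marker of macrophages, stood at 8.42 to 8.67 in every array. HSPA1A, the inducible HSP70, was 10.38 and 10.11 in the unheated arrays and 12.02 and 12.08 in the heated ones, as the labels say. The kinase gene ATM and the p53 targets CDKN1A and MDM2 are not among the named features and were not analysed here.

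After X-rays, p53 target genes were higher and genes of G2 and mitosis lower at both temperatures. Across the 14884 genes, an additive fit in limma with temperature and radiation as terms called 41 genes as higher (0.275% of those tested) and 46 as lower (0.309%) at an adjusted p under 0.05. Of the 41 that rose, 16 were in 3 lists of p53 targets, and of the 46 that fell, 28 were in 4 lists of G2 and mitosis genes. All 87 differed in the same direction at 37 °C and at 41.5 °C. The calling rule largely sets this agreement, since disagreement between the pairs is the error of the fit. The sizes were modest: 9 of the 87 reached 2-fold, 7 higher and 2 lower. Below, a ± value is the standard error of a log2 difference in that fit, which rests on 4 arrays, and adjusted p is its Benjamini-Hochberg value over all 14884 genes.

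The error of the fit rests on 1 residual degree of freedom, which also holds any interaction of heat and radiation, and on sharing variances among genes of like level. No gene was called when that trend with level was not modelled (lowest adjusted p 0.346), when all 6 arrays were fitted (0.0562) or when all 53617 features were tested together (0.183). Leaving out the trend changes only the error and not the differences, so direction could not turn there. The 87 genes also kept their direction with all 6 arrays, which include the 4 that chose them. In these 2 limma fits 87 and 81 of them had an unadjusted p under 0.05, among 946 and 733 genes in all. All of these fits share arrays with the one that chose the genes and give no independent evidence. In the fit of all features, the 87 features of these genes had an unadjusted p under 0.05, among 3140. On data simulated with this design the share of false calls was above the nominal one, so single genes near the threshold are the least certain.

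Without a test, 36 genes were higher by more than 1.5-fold in both pairs (0.242%) and 28 were lower (0.188%). At each temperature alone far more genes passed that size: 230 higher and 220 lower at 37 °C, and 245 and 247 at 41.5 °C. Simple agreement in sign was common, since 25.0% of all genes were higher in both pairs and 26.0% lower. Across the 14884 genes the differences at the 2 temperatures correlated weakly (Pearson r = 0.08), and among the 7442 genes above the median level more closely (r = 0.25). Genes are not independent replicates, and these correlations only describe the arrays.

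**Figure D1:**
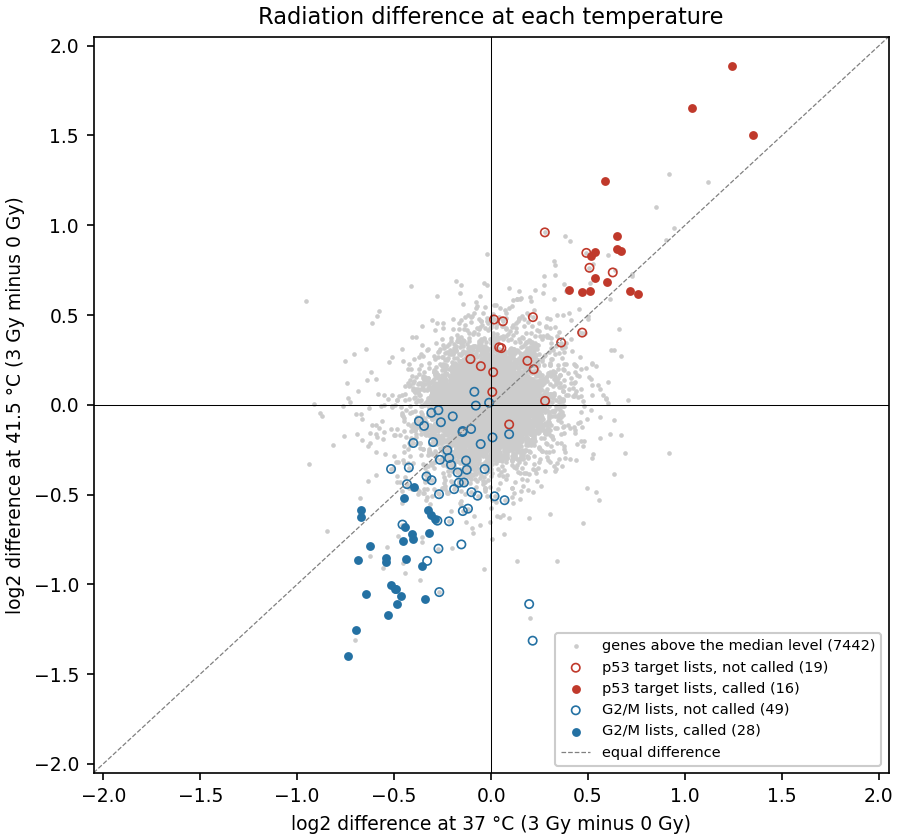
Log2 difference between irradiated and unirradiated cells at 37 °C (horizontal axis) and at 41.5 °C (vertical axis), 1 point per gene. Grey points are the 7442 genes above the median level, red circles the measured p53 targets and blue circles the measured G2 and mitosis genes, filled where called (16 and 28). The called p53 targets lie at the upper right and the called mitosis genes at the lower left, most of them beyond the dashed line of equal difference on the 41.5 °C side.

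Of the 20 listed p53 targets of arrest and feedback 13 were measured, 9 rose, 0 fell and 4 did not pass, with a median log2 difference of 0.64 against -0.00255 over all genes. The members were chosen with results of these data known, so their count describes the genes and gives no independent evidence of direction. SESN1, a sestrin that restrains mTORC1 under stress, had log2 levels of 5.73 in the control and 5.64 after heat alone, and of 7.08 after X-rays alone and 7.14 after both. The irradiated arrays lay far above the unirradiated ones and the pairs had nearly the same size, which gave 2.69-fold (1.43 ± 0.11, adjusted p = 0.00011). TP53INP1, a stress protein that promotes p53 activity and autophagy, stood at 5.91 in the control and 5.06 after heat, and at 7.15 and 6.94 in the irradiated arrays. Its rise of 2.96-fold (1.57 ± 0.14, adjusted p = 0.000237) was the largest among called genes above the median level. The irradiated levels of TP53INP1 were close to each other, and the unirradiated heated array was the low one.

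GDF15, a secreted cytokine of the TGF-beta superfamily induced by stress, showed the same arrangement. It measured 8.68 in the control and 8.02 after heat, against 9.71 and 9.67 with X-rays, a rise of 2.54-fold (adjusted p = 0.000237). SESN2, the second sestrin, rose from 6.22 to 6.80 at 37 °C and from 5.95 to 7.20 at 41.5 °C (1.89-fold, adjusted p = 0.00721). For SESN2 both the lower starting level and a higher irradiated level at 41.5 °C entered the larger difference. The polo-like kinases PLK2 and PLK3, which act in stress checkpoints, rose 1.54-fold and 1.69-fold. PLK2 went from 8.58 to 9.11 and from 8.55 to 9.25, and PLK3 from 5.70 to 6.35 and from 5.94 to 6.81.

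CCNG1, cyclin G1, which takes part in feedback on p53, rose 1.46-fold, IER5, an early response gene, 1.56-fold, and RPS27L, a ribosomal protein paralogue induced by p53, 1.60-fold. Their adjusted p-values lay between 0.00688 and 0.00906. The other 4 members did not pass. SERTAD1, a transcriptional cofactor of cyclin D and CDK4 complexes, had differences of 0.28 at 37 °C and 0.96 at 41.5 °C (adjusted p = 0.0973). CCNG2 and KLF4 differed by 0.21 ± 0.15 and 0.07 ± 0.13.

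A pair of microRNA genes bears on these targets: MIR34A, a member of the list, and MIR3189, which lies inside the GDF15 gene. Their mature sequences from RefSeq (GRCh38.p14) are shown with the seed, bases 2 to 8, in capitals, because the seed sets which transcripts a microRNA can pair with and none of the 3 seeds is shared.
hsa-miR-34a-5p, chr1:9151735-9151756, minus strand: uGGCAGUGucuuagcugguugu
hsa-miR-3189-5p, chr19:18386570-18386594, plus strand: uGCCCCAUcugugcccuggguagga
hsa-miR-3189-3p, chr19:18386607-18386627, plus strand: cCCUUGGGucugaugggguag

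MIR34A was dim, at 4.24 and 4.28 in the 37 °C arrays and 4.32 and 4.64 in the 41.5 °C arrays, and did not pass (0.18 ± 0.17, adjusted p = 0.944). MIR3189 measured 5.62 in the control and 5.40 after heat, against 6.74 and 6.64 with X-rays, and rose 2.27-fold (adjusted p = 0.000368). Since this feature lies inside GDF15, a microRNA precursor and the transcript of its host gene cannot be told apart.

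Among p53 targets of cell death, 10 of 19 listed genes were measured, 5 rose and 0 fell, with a median of 0.44. PMAIP1, which encodes the BH3-only protein NOXA, rose 1.70-fold (adjusted p = 0.00471). Its levels were 5.95 and 6.17 without X-rays and 6.62 and 7.02 with them. BBC3, which encodes PUMA, measured 5.48 and 5.39 without and 6.01 and 6.24 with X-rays (1.62-fold, adjusted p = 0.0287). AEN, an apoptosis enhancing nuclease, rose 1.49-fold, and TRIAP1, a small mitochondrial protein that opposes apoptosis, 1.61-fold. TP53I3, a quinone oxidoreductase, was called at 1.44-fold (adjusted p = 0.0222), although its level after heat alone (7.73) was slightly above that after X-rays alone (7.70). Its difference therefore rested on the pairing by temperature. BAX, the pore-forming effector, differed by 0.22 and 0.49 in the pairs and did not pass (adjusted p = 0.209). APAF1, the scaffold of the apoptosome, likewise missed the threshold at 0.35 ± 0.10, and BCL2L1, PIDD1 and TP53AIP1 lay between -0.01 and 0.25.

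The p53 targets of repair and metabolism gave 12 measured of 20 listed genes, of which 2 rose and 0 fell, with a median of 0.35. EDA2R, a receptor of the TNF receptor superfamily, measured 8.59 and 8.53 without X-rays and 9.24 and 9.47 with them. It was brighter in both irradiated arrays by 1.73-fold on average (0.79 ± 0.09, adjusted p = 0.00123). TIGAR, a phosphatase that lowers glycolytic flux, rose 1.59-fold from 7.33 and 7.40 to 7.85 and 8.22. Just outside the threshold lay KITLG, the ligand of KIT (0.64 ± 0.13, adjusted p = 0.0515), SUSD6 (0.68 ± 0.14, adjusted p = 0.056), SPATA18 (0.67 ± 0.14, adjusted p = 0.0563) and RRM2B, the p53-inducible subunit of ribonucleotide reductase (0.44 ± 0.09, adjusted p = 0.0626). RPS27 (0.04), CDIP1 (0.10), DRAM1 (0.15) and TRIM22 (0.18) had small differences.

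Over the 3 lists together, 35 of 59 genes were measured and 30 of these lay above the median level of all genes. The 16 calls were all rises, against 0.275% of all genes. Of the 35, 32 were higher in both pairs, against 25.0% of all genes, and 11 passed 1.5-fold in both, against 0.242%. Members of all 3 lists were chosen with results of these data known, so these counts give no independent evidence of direction. The shares over all genes are not matched for level either. The median difference was 0.47 at 37 °C and 0.63 at 41.5 °C.

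**Figure D2:**
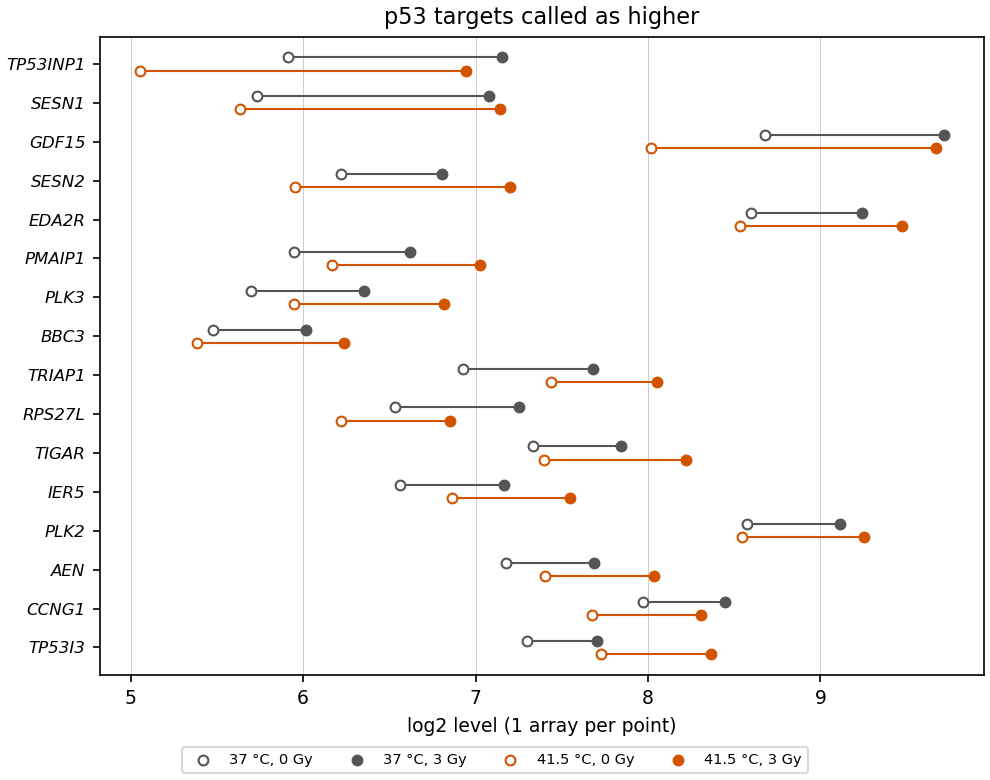
Log2 level of the 16 p53 targets called as higher, in each of the 4 arrays. Open circles are unirradiated and filled circles irradiated cells, grey at 37 °C and orange at 41.5 °C, and each line joins a pair. TP53INP1, GDF15 and SESN2 start lower at 41.5 °C than at 37 °C, while SESN1 has nearly equal pairs.

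The other 25 genes that rose are in none of the lists. They are named here by size or, below the 12 largest rises, after their values were seen. PURPL, a long noncoding RNA that acts in feedback on p53, measured 8.10 and 7.46 without X-rays and 9.01 and 8.75 with them (2.15-fold, adjusted p = 0.000237). ACER2, a Golgi ceramidase, rose 1.97-fold from 6.21 to 7.06 at 37 °C and from 6.56 to 7.66 at 41.5 °C. ZNF79, a zinc finger gene, rose 1.95-fold (0.97 ± 0.09) with nearly equal differences of 0.94 and 0.99. FBXO22, an F-box subunit of a ubiquitin ligase, was as even, with 0.73 in both pairs, although a dimmer feature of that gene had 0.05 and -0.26, and the mean of both features was not called (0.31, adjusted p = 0.413). GAS6-AS1, antisense to GAS6, rose 1.88-fold. Its other feature had -0.06 at 37 °C and 0.69 at 41.5 °C, and with the mean of both the call was lost (0.61, adjusted p = 0.0669). The use of strand in its probes is not given here, so antisense and sense RNA cannot be told apart.

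Further rises were RNF19B (1.65-fold), LACC1 (1.65-fold), ISCU, the scaffold of iron-sulphur cluster assembly (1.56-fold), RALGDS (1.62-fold), E2F7, an atypical E2F that represses transcription (1.58-fold), TRAF4 (1.58-fold), SULF2 (1.44-fold) and TRIM32 (1.43-fold). A dimmer feature of SULF2 had -0.05 and 0.04, and the mean of both was not called (0.26, adjusted p = 0.69). PCNA-AS1, which lies inside PCNA, rose 1.40-fold, and PCNA itself, the replication clamp, differed by 0.34 ± 0.08 and did not pass (adjusted p = 0.104). At 44 °C PCNA-AS1 was lower with X-rays, by -0.61. The largest rises among dim genes were MIR548C at 2.55-fold, KRTAP5-3 at 2.12-fold and MIR3928 at 1.84-fold. MIR548C measured 2.43 and 3.37 without and 3.85 and 4.64 with X-rays, and was higher in the heated array at each dose. Its other feature had 0.29 and 0.22, and with the mean of both the call was lost (0.80, adjusted p = 0.162). MIR548C lies inside RASSF3, whose transcript and a microRNA precursor cannot be told apart here. The remaining 7, LOC389906, GRHL3, DEPDC7, ZNF302, CCDC90B, GSTM2 and ZNF337, lay between 1.41-fold and 1.79-fold.

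For PURPL the RefSeq promoter window held a match to the p53 response element, searched by name on both strands. The stretch is shown because 10 of 27305 genes with a promoter window (0.0366%) held such a match, and 1 of the 33 risen genes with a window did. Capitals mark the match, which begins 127 bases before the gene start.
PURPL, GRCh38.p14, chr5:27472142-27472291, plus strand: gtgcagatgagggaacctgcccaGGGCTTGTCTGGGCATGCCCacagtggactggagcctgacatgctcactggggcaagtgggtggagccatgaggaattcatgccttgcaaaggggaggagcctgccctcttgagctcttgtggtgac
None of the 30 p53 list members with a window held a match within these 300 bases, which says nothing of elements elsewhere in those genes.

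Many genes of G2 and mitosis were lower after X-rays. Of 95 listed genes 77 were measured, 28 fell, 0 rose and 49 did not pass, with a median log2 difference of -0.43. Among all genes 0.309% were called as lower, the share to set beside this count and those of each G2 and mitosis list below. Of the 77, 69 were lower in both pairs, against 26.0% of all genes. These members too were chosen with results of these data known, so their counts give no independent evidence of direction. Above the median level of all genes lay 73 of the 77. The fit shares variances among genes of like level, so level enters the standard error. CDC20 (mean level 8.66) and the dim endothelial gene VWF (4.21) both had nearly equal pairs, with standard errors of 0.08 and 0.17. Of all called genes, risen or fallen, 80 lay above the median level. Neither share over all genes is matched for level, and 0.309% understates how readily bright genes are called. In bulk RNA, fewer cells in a phase of the cycle and less RNA per cell cannot be told apart. The promoters of 7 of them are shown before the values. PLK1 and CCNB1 were added by name, and CCNB1 has no TTTGAA in its stretch. The others are the largest falls, among list members with a single window, that hold both TTTGAA and CCAAT there. The letters they share thus come from that choice, and genes without both, such as CENPA, were passed over. Each stretch runs from 120 bases before the RefSeq gene start to 30 bases after it (GRCh38.p14), and capitals mark TTTGAA and CCAAT on either strand (TTCAAA and ATTGG are the same letters on the other strand). CCAAT is the element bound by NF-Y. In CDCA8 the 2 motifs overlap.
CCNF, chr16:2429327-2429476, plus strand: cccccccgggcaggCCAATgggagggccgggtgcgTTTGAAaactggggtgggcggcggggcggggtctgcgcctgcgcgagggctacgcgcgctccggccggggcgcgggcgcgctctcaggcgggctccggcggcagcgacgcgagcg
KIF18A, chr11:28108127-28108276, minus strand: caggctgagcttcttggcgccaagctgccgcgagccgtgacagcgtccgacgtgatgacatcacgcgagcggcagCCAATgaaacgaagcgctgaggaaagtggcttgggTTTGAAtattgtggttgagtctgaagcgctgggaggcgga
CDCA8, chr1:37692396-37692545, plus strand: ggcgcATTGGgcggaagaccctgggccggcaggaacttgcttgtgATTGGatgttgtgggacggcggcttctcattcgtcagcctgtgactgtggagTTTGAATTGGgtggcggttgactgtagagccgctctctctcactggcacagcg
KIFC1, chr6:33391703-33391852, plus strand: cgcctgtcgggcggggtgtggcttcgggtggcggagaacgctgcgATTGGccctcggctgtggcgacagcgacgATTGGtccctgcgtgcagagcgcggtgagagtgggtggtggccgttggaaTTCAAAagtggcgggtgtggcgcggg
KIF14, chr1:200620722-200620871, minus strand: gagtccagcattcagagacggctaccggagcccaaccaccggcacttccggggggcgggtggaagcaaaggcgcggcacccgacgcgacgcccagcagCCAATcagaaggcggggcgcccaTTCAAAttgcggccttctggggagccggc
PLK1, chr16:23678769-23678918, plus strand: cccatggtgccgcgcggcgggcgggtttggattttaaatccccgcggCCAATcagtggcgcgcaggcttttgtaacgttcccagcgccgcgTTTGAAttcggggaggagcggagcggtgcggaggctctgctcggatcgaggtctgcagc
CCNB1, chr5:69167030-69167179, plus strand: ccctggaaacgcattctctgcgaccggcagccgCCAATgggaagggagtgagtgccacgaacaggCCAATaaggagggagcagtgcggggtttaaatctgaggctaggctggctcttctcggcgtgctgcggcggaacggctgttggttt

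TTTGAA stood in the promoter windows (250 bases before to 50 after any listed start) of 19 of the 25 fallen list members that had one (76%). It was found in 23 of 41 list members that were not called (56.1%), in 4961 of all 27305 genes (18.2%), in 1 of 20 measured G1/S genes (5%) and in 0 of 30 measured p53 targets. Of the fallen genes outside these lists that had a window, 7 of 13 held it (53.8%), and of the risen genes 1 of 33 (3.03%). In the fallen list members its 21 matches began at a median of 23 bases before the start. CCAAT was found in 21 of the 25 (84%) and in 31 of the 41 list members that were not called (75.6%). The 20 G1/S genes had it in 14 cases (70%), and all genes in 39.7%. Among the tested genes with a window the shares were 15.3% for TTTGAA and 41.4% for CCAAT. These shares describe letters, not binding, and the list was drawn from genes long known to be regulated with the cell cycle.

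Regulators of mitotic entry had 18 measured of 20 listed genes, with 6 falls, 0 rises and a median of -0.37. CCNF, cyclin F, the substrate receptor of a ubiquitin ligase, had levels of 7.31 in the control and 7.25 after heat, and of 6.57 and 5.85 after X-rays without and with heat. The unirradiated arrays were alike and the combined treatment was lowest, and the mean fall of 2.10-fold (-1.07 ± 0.13, adjusted p = 0.00292) was the largest among called genes above the median level. CCNB1, cyclin B1, the partner of CDK1 at mitotic entry, measured 8.31 and 8.34 without X-rays and 7.87 and 7.48 with them (1.57-fold lower, adjusted p = 0.00958). PLK1, the kinase that promotes entry and recovery from the G2 checkpoint, went from 9.80 to 9.26 at 37 °C and from 9.71 to 8.85 at 41.5 °C (1.62-fold lower, adjusted p = 0.00307).

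AURKA, the Aurora A kinase of spindle poles, fell by 0.34 at 37 °C and by 1.08 at 41.5 °C (adjusted p = 0.0369). WEE1, which inhibits CDK1, also fell, from 7.32 to 6.91 and from 7.47 to 6.73, and GTSE1, a microtubule protein that restrains p53, fell 1.63-fold. The list thus held falls of genes that promote entry and of 1 that opposes it. CDK1 itself (-0.30 ± 0.10, adjusted p = 0.382), CCNA2 (-0.46 ± 0.09, adjusted p = 0.0562), CKS2 (-0.39, adjusted p = 0.0514) and the transcription factor FOXM1 (-0.29, adjusted p = 0.294) did not pass. MYBL2 (-0.01) and MASTL (-0.04) lay near 0.

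For the spindle checkpoint and anaphase, 20 of 21 listed genes were measured, 3 fell and 0 rose, with a median of -0.26. CDC20, the activator of the anaphase promoting complex, measured 8.83 and 8.97 without X-rays and 8.38 and 8.45 with them. Its pairs were nearly equal (-0.45 and -0.52, adjusted p = 0.0148). SGO2, a protector of centromeric cohesin, fell 1.70-fold (adjusted p = 0.0226), from 6.42 to 5.92 and from 6.45 to 5.42. BUB1, a checkpoint kinase, fell 1.37-fold (adjusted p = 0.0415). FBXO5, an inhibitor of the anaphase promoting complex, was at -0.56 ± 0.12 (adjusted p = 0.0636), and TTK, BUB1B, MAD2L1 and PTTG1 lay between -0.25 and -0.47 without passing.

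Of the centromere and kinetochore list 13 of 20 genes were measured, 6 fell and 0 rose, with a median of -0.43, and all 13 were lower in both pairs. CENPA, the histone H3 variant that marks centromeres, stood at 7.77 and 7.64 without X-rays and at 7.08 and 6.39 with them (1.97-fold lower, adjusted p = 0.00239). HJURP, the chaperone that deposits CENPA, fell from 9.17 to 8.76 and from 9.55 to 8.83. The chromosomal passenger complex had 3 fallen members, CDCA8 (1.80-fold lower, adjusted p = 0.00307), INCENP (1.43-fold, adjusted p = 0.0444) and the kinase AURKB (1.34-fold, adjusted p = 0.0339). Its remaining subunit, BIRC5, differed by -0.24 ± 0.08 and did not pass (adjusted p = 0.48). NDC80, which couples kinetochores to microtubules, fell 1.64-fold.

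Spindle motors and cytokinesis genes gave the most calls: 26 of 34 were measured, 13 fell and 0 rose, with a median of -0.56. KIF18A, a kinesin that damps chromosome oscillation, measured 7.74 and 7.40 without X-rays and 7.21 and 6.23 with them (1.80-fold lower, adjusted p = 0.00723). The value after both treatments was the lowest by a wide margin. KIFC1, a minus-end kinesin that clusters centrosomes, fell 1.71-fold (adjusted p = 0.00235), from 7.62 to 6.93 and from 7.61 to 6.75. Of its 3 other features 1 holds the same values, 1 had differences of -0.74 and -0.88, and a dim one had 0.09 and -0.16. KIF14 (1.70-fold), KIF23 (1.54-fold), KIF18B (1.55-fold), KIF2C (1.48-fold) and KIF11 (1.38-fold) were lower too. KIF4A, KIF20A, KIF20B and KIF22 differed by -0.15 to -0.66 and did not pass.

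ARHGAP11A, a GTPase activating protein, fell 1.74-fold, HMMR, a spindle assembly factor, 1.69-fold, and DEPDC1 1.69-fold. With the mean of its features DEPDC1 was not called (-0.63, adjusted p = 0.0845). PRC1, which bundles the midzone, fell 1.38-fold, G2E3 1.57-fold and HMGB2, a chromatin protein, 1.52-fold. TOP2A, the mitotic topoisomerase, differed by -0.07 at 37 °C and -0.51 at 41.5 °C and did not pass (adjusted p = 0.457). RACGAP1 and PSRC1, both dim here with levels from 3.66 to 5.23, had differences of 0.20 and 0.21 at 37 °C and of -1.11 and -1.31 at 41.5 °C.

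**Figure D3:**
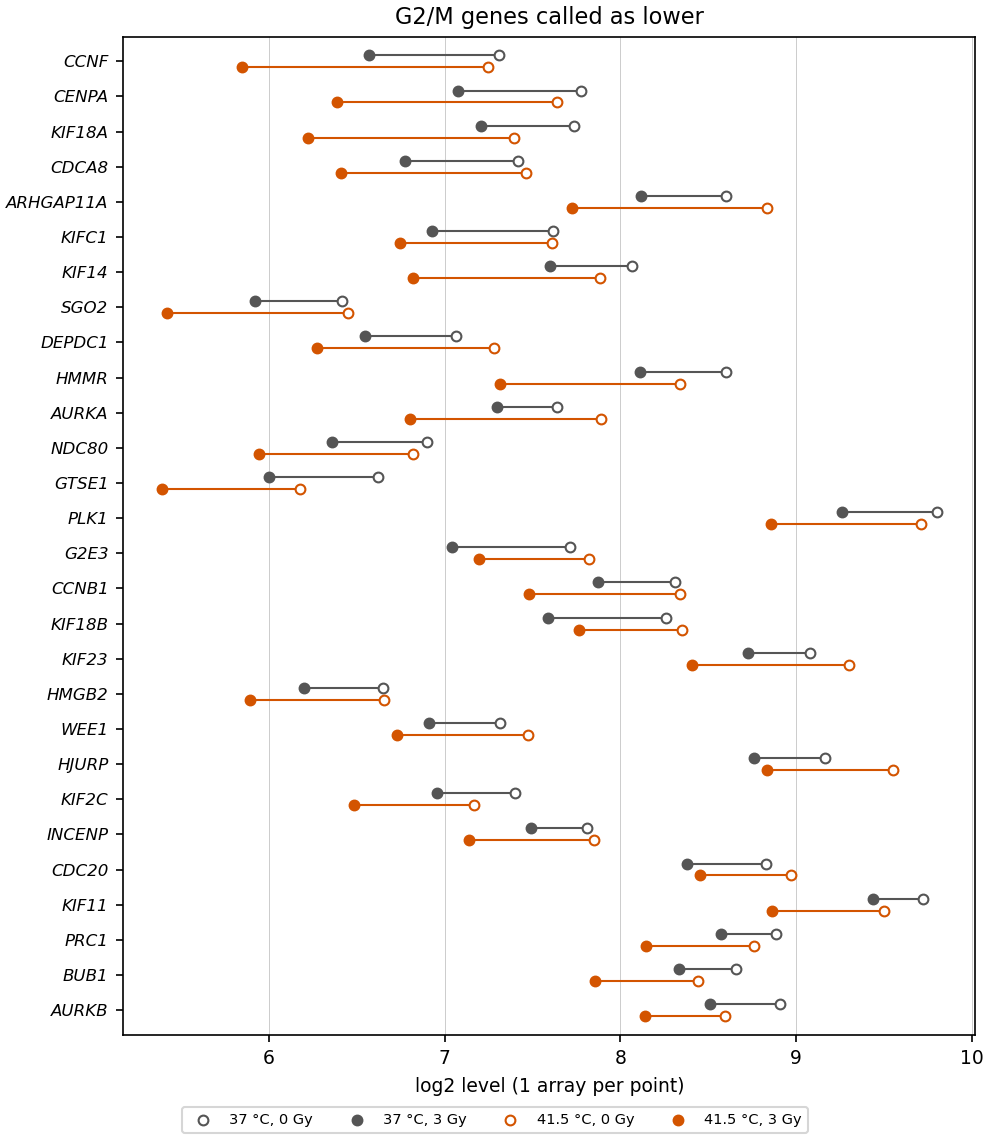
Log2 level of the 28 G2 and mitosis genes called as lower, in each of the 4 arrays. Open circles are unirradiated and filled circles irradiated cells, grey at 37 °C and orange at 41.5 °C, and each line joins a pair. For CCNF, KIF18A and AURKA the orange line is much the longer, while for KIF18B, G2E3 and CDC20 both lines have about the same length.

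Of the 18 other genes that fell, 17 are in no list. GAS2L3, a cytoskeletal linker of the midbody, measured 7.88 and 7.85 without X-rays and 7.18 and 6.54 with them (2.01-fold lower, adjusted p = 0.00239). ARHGAP11B, a copy of ARHGAP11A, and LOC100288637, which overlaps it, fell 1.66-fold and 1.71-fold. These near-identical loci can share probe signal with ARHGAP11A and are uncertain as single genes. The others, named after their values were seen, included CDCA2, which brings a phosphatase to mitotic chromatin (1.66-fold), CKAP2L (1.59-fold), KNSTRN (1.48-fold), PRR11 (1.34-fold), the centriole assembly factor STIL (1.52-fold) and the proliferation antigen MKI67 (1.34-fold). TICRR and DBF4, which act in replication origin firing, fell 1.42-fold and 1.61-fold, NEIL3, a DNA glycosylase, 1.32-fold, and LMNB1, lamin B1, 1.35-fold. DEPDC1B was called at 1.44-fold with overlapping arrays, since it was 6.89 after heat alone and 6.90 after X-rays alone. The dim genes MIR548AL and RNF216P1 fell 1.84-fold and 1.71-fold.

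MYC was the single called member of any other list. This transcription factor of growth measured 7.72 in the control and 8.02 after heat, against 7.05 and 7.50 with X-rays. It was lower in each irradiated array than in its partner and fell 1.51-fold (-0.60 ± 0.09, adjusted p = 0.00721).

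The difference between irradiated and unirradiated cells was often larger at 41.5 °C. It was so for 32 of the 41 genes that rose and for 40 of the 46 that fell, and for 26 of the 32 p53 targets that were higher in both pairs and 55 of the 69 G2 and mitosis genes that were lower in both. Over all genes these shares were 52.2% of those higher in both pairs and 52.4% of those lower in both. The median of the fallen genes was -0.48 at 37 °C and -0.78 at 41.5 °C, and of the risen genes 0.64 and 0.81. With 1 pair at each temperature the difference between them could not be tested. In the fallen genes heat alone moved the median by 0.004, while the irradiated arrays differed between temperatures by -0.35. In the p53 lists the medians were -0.04 for heat alone and 0.22 in the irradiated arrays. The time that the combined treatment was kept is not stated, so heat and a different time after X-rays cannot be told apart.

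At 44 °C, in the 2 arrays outside the fit, the same genes differed little. Of the 41 that rose, 27 were higher in IR_HT 44 than in HT 44, with a median of 0.09 and a range of -0.61 to 0.89, and 2 passed 1.5-fold (PURPL with 0.64 and MIR3928 with 0.89). Of the 46 that fell, 13 were lower at 44 °C, with a median of 0.10 and a range of -0.20 to 0.36, and 0 passed 1.5-fold. Over all genes, whatever their sign in the fit, 52.0% were higher with X-rays at 44 °C and 47.7% were lower. SESN1 differed there by 0.004, GDF15 by -0.09, TP53INP1 by 0.42, CCNF by -0.10 and CENPA by -0.03. The median of the 77 G2 and mitosis genes was 0.02, with 43 higher and 34 lower, and that of the 35 p53 targets 0.08. Whether the 44 °C pair differed from the others was not tested.

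**Figure D4:**
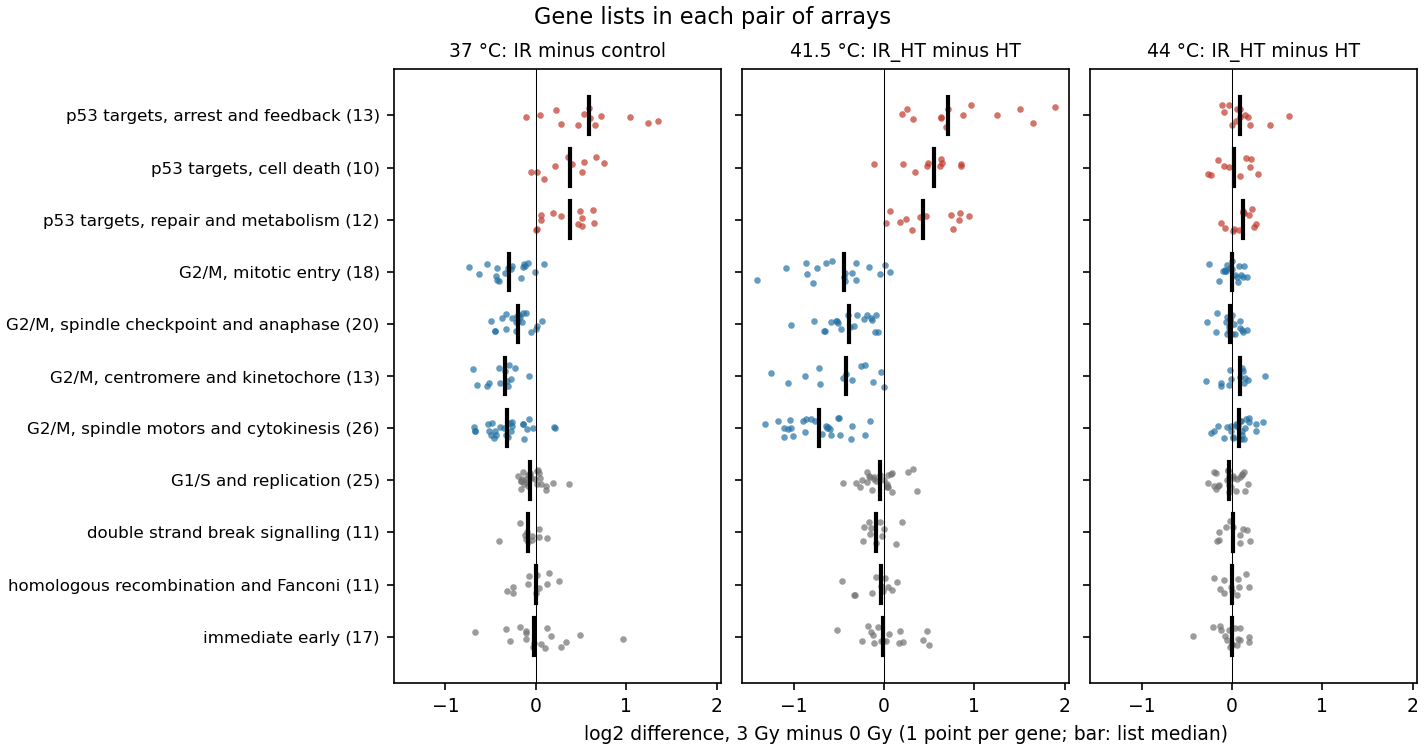
Log2 difference between irradiated and unirradiated cells for the members of 11 gene lists in the pair at 37 °C, at 41.5 °C and at 44 °C, 1 point per gene with the list median as a bar and the number of measured members in brackets. Medians of the 3 p53 lists lie to the right of 0 and those of the 4 G2 and mitosis lists to the left at 37 °C and 41.5 °C, and all 11 lie close to 0 at 44 °C, between -0.03 and 0.12.

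G1/S and replication genes had 0 calls among 25 measured, a median of -0.04 and a range from -0.31 for E2F8 to 0.34 for PCNA. In limma 3 of them had an unadjusted p under 0.05. Over all 14884 genes 1062 had such a p, the background for this count and for those of the lists below. The lists of the DNA damage response had 0 calls too. Sensors and mediators of double strand breaks (11 measured) had a median of -0.06, from RAD9A at -0.27 to CHEK2 at 0.05, with 1 gene at an unadjusted p under 0.05. Homologous recombination and Fanconi genes (11 measured) had a median of 0.01, from BARD1 at -0.36 to XRCC2 at 0.12, with 2 such genes. End joining genes (4 measured) ran from DCLRE1C, the Artemis nuclease, at -0.42 to XRCC6 at 0.09, with 1 such gene.

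Immediate early genes (17 measured) had a median of 0.02 and, besides MYC, 0 calls. ATF3, a stress-induced repressor, had the highest value, from 4.58 to 5.55 at 37 °C and from 4.96 to 5.46 at 41.5 °C, and did not pass (0.73 ± 0.15, adjusted p = 0.061). EGR1 stayed between 5.26 and 5.36 in the 4 arrays. NF-kappaB targets (9 measured) ran from CCL20 at -0.43 to CXCL3 at 0.29, and interferon stimulated genes (12 measured) from IRF9 at -0.24 to IFIT1 at 0.47, with 0 calls in either. In limma 1 gene of the first and 0 of the second had an unadjusted p under 0.05.

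Heat shock chaperones (11 measured) had 0 calls for radiation and a median of -0.06, from HSPD1 at -0.13 to HSPA4L at 0.23. BCL2 family genes (14 measured) ran from BCL2 at -0.20 to BAX at 0.35, NRF2 targets (4 measured) from OSGIN1 at -0.22 to HMOX1 at -0.02, and housekeeping genes (5 measured) from HPRT1 at -0.09 to B2M at 0.03. These 3 lists had 0 calls as well, with 2, 0 and 0 genes at an unadjusted p under 0.05 and 1 among the chaperones. A p that misses the threshold does not show that a gene is unchanged, since the median standard error of 0.14 leaves changes of modest size undetected.

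A departure, the difference at 41.5 °C minus that at 37 °C, shows where the temperatures disagreed. It passed 1.5-fold for 156 of the 7442 genes above the median level, without a test. The 4 lowest were all microRNA features: MIR891A, MIR548H2, MIR4481 and MIR4710, from -1.38 to -1.14. MIR4481 measured 6.40 and 7.32 without and with X-rays at 37 °C and 6.56 and 6.29 at 41.5 °C. The 4 highest were MIR365A, DPY19L3-DT, SNAR-D and SNAR-C1, from 1.53 to 1.07. MIR365A measured 6.05 and 5.09 at 37 °C and 5.86 and 6.44 at 41.5 °C. SNAR-C1 measured 10.32 and 9.71 and then 10.75 and 11.21, and its near-identical family copies can share probe signal. None of these 8 genes is among the 87 called, which follows largely from their choice, since the departure is the error of the fit.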

How the data were processed

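RNA of A549 cells was measured on 6 Affymetrix arrays, from 300 ng of RNA each, biotin-labelled per the labels' protocols. The deposited values are log2 levels, summarised by the authors with RMA in Affymetrix Expression Console 1.1, per the submitters' processing notes. RMA equalises arrays: sorted values of the 4 arrays deviated by at most 0.103. No source used here names the genome build of the probes.

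For the 779 genes with several features the brightest was kept. Differences were fitted with limma 3.58.1 in R 4.3.3 (temperature as a factor, radiation as a term, moderation with a level trend, prior degrees of freedom 11.6, median SE 0.137), two-sided, adjusted by Benjamini-Hochberg over 14884 genes, and called under 0.05. On simulated data the test recovered most large changes but could call more unchanged genes than the threshold allows. P-values reflect array-to-array spread that may be technical, since no source names separate cultures, and the number of arrays limits precision. Members and gene lists were chosen with earlier results of these data known.

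Named genes were the 12 largest rises and falls called above the median level, p53 and G2/M list members, the extremes and calls of other lists, a short set (among them ATM, HSPA1A, EGR1, CDKN1A, MDM2, CCNB1 and PLK1), the 4 largest departures each way, and the 3 largest dim rises and falls. For the falls, 2 dim calls existed. Sequences came from RefSeq tables of GRCh38.p14, matched by symbol. Alternatives were a further quantile normalization, median centring, leaving out dim genes, the mean of features, all features, all 6 arrays, moderation without the trend, robust moderation and leaving out single arrays.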

Additional observations from a re-analysis of the deposited data

Results flagged for a closer look

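For 25 of the 300 genes described or counted by list, the radiation difference had opposite signs at 37 °C and at 41.5 °C and passed in each pair 0.128 on the log2 scale, the spread of a pair taken from the median residual SD. The same cut of 0.128 served genes of all levels and lies below the median standard error of 0.137. Passing it does not show a difference beyond noise. The difference between the temperatures was not tested for any of these genes, because each temperature has 1 pair. None of the 25 was called, which follows largely from their choice by opposite signs. The values below are the difference at 41.5 °C minus that at 37 °C.

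Among the genes of G2 and mitosis, the dim RACGAP1 stood at -1.306 and PSRC1 at -1.528. The extremes of all genes above the median level were MIR891A at -1.384, MIR548H2 at -1.212, MIR4481 at -1.188 and MIR4710 at -1.136 on the low side, and MIR365A at 1.53, DPY19L3-DT at 1.099, SNAR-D at 1.084 and SNAR-C1 at 1.073 on the high side. They were chosen for these values.

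Damage and signalling genes gave 0.3131 for TP53BP1, -0.3134 for JUND, -0.3675 for IRAK2, 0.7091 for IFI44L and -0.9414 for MX2. The chaperone genes HSPB8 and BAG3 had 0.8688 and 0.4866, and HMOX1 had 0.3631. In the BCL2 family the values were -0.912 for BCL2, 0.4746 for BIK, 0.4625 for BCL2L11 and 0.3683 for BOK. GAPDH gave 0.3132, SFTPB -0.4707 and PECAM1 -1.133.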

How the results depend on the processing

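All settings were planned. The 87 calls (41 rises and 46 falls) became 154 (78 and 76) after a further quantile normalization. They became 0 (0 rises and 0 falls) with all 6 arrays, without the trend of variance with level, and with all features tested. Fits of all 6 arrays without 1 of the 4 gave 0 to 2 calls, with 0 to 1 rises and 0 to 1 falls: 0 without the control or without IR, and 2 without HT 41.5 or without IR_HT 41.5. Median centring (77), leaving out dim genes (89), the mean of features (67) and robust moderation (81) stayed within 1.5 times. The cause of the changes was not tested. All of these fits share arrays with the one that chose the genes, so a kept direction is no independent evidence. In every fit of the same 4 arrays the called genes that were tested kept their direction, as they did with all 6 arrays. In each fit that left an array out of the 6, 86 of 87 did. The exception, PCNA-AS1, ranged there from -0.0672 to -0.05585, against 0.49 in the 4-array fit and 0.4991 at 37 °C alone. Genes past 1.5-fold in both pairs went from 36 higher to 21 and from 28 lower to 10 without dim genes, and to 5 and 0 at 2-fold. Leaving out 1 array leaves 1 pair, with 230 to 245 higher and 220 to 247 lower and no test. Of the called genes, 40 kept their sign at 44 °C, and 77 of 154 after quantile normalization. PCNA-AS1 was the one called gene whose sign turned under any setting run. The groups of 1 array carry no replicate numbers, so no block by number was fitted, and arrays were paired by temperature throughout.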
